A study of Mus musculus with 5 samples.

Results

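The ATF and CREB family with small MAFs comprises 10 mouse genes for transcription factors of the basic leucine zipper (bZIP) class that respond to stress and to cyclic AMP. They were Atf3, Jdp2, Creb1, Crem, Atf1, Atf2, Maff, Mafk, Mafg and Nfil3, taken by their gene symbol, and all 10 were found among the 55385 genes counted in each library. The study sequenced total RNA from the hippocampus after seizures provoked by kainic acid, which acts on glutamate receptors and drives neurons of the hippocampus into excess firing. The animals were male C57/bl6 mice, 3 months of age, and kainic acid was injected into the peritoneum at 20 mg/kg. Of the 5 libraries, 1 came from untreated controls, 1 from the 1 h time point after seizure onset, 2 from the 4 h time point and 1 from the 8 h time point. The control was untreated and not injected with vehicle. The labels do not say how many mice contributed to a library, and no labelled library received SL327, an inhibitor of MEK that the treatment description also names.

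Gene counts summed to 19100374 for the control library, 17744508 for 1 h, 18250114 and 19109204 for libraries 1 and 2 of 4 h and 16612225 for 8 h. Levels are given as normalized CPM, that is, CPM (counts scaled to a common library size) with the TMM factors of edgeR. A count of 3, taken as the floor of detection, lay between 0.151 (control) and 0.178 normalized CPM (library 1 at 4 h), and every count of the 10 genes lay above 3. Intervals are exact 95% intervals, Poisson for a level and binomial for a ratio of 2 libraries. They cover counting error only, since sequenced reads are not independent molecules, and they say nothing on the spread between animals.

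bZIP factors bind DNA as dimers, and the pairing decides which site they prefer and whether they activate or repress. The CREB subfamily binds the cyclic AMP response element (CRE) and is activated by phosphorylation when cyclic AMP or calcium rises, and CREB1 is known in the hippocampus for its role in activity-dependent transcription and memory. The small MAFs lack an activation domain and pair with CNC factors such as NRF2 and BACH1 on antioxidant response elements.

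Genes that neuronal activity is known to switch on were checked first. Fos, which encodes an AP-1 subunit, had 215 counts in the control and 17563 at 1 h, then 8743 and 1331 in the pair at 4 h and 302 at 8 h. Arc, a synaptic effector gene, had 2936, 35538, 43661, 17548 and 2658 counts in the same order. Npas4, a transcription factor gene induced by calcium entry, had 78, 12204, 2189, 93 and 90. The libraries at 1 h and 4 h thus stood apart from the control in the direction of their labels, except for Npas4 in library 2 at 4 h, and library 1 held more of each of the 3 transcripts than library 2.

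The libraries at 4 h also stood apart from each other in choroid plexus, the epithelium that makes cerebrospinal fluid. Its 4 marker genes summed to 3932 normalized CPM in the control, 1662 at 1 h, 26.4 in library 1 and 4176 in library 2 at 4 h, and 3032 at 8 h. Ttr, which was the most abundant of them, had 3747, 1573, 16.3, 3971 and 2884 normalized CPM, and none of the 4 markers had a count of 0 in any library. Against the control, Ttr and Folr1 were at least 2-fold lower at 1 h, and at 4 h all 4 markers were that much lower in library 1 and none in library 2. Of the 19768 genes that passed the filter on low counts, 1953 (9.88%) differed at least 2-fold between the libraries at 4 h, 1197 of them higher in library 1, and the log2 ratio between the pair had an SD of 0.66. Levels of the 10 genes at 4 h are therefore given for each library on its own, log2 fold changes at 4 h are for the mean of the pair unless a library is named, and the part of these differences in the results at 4 h was not tested.

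To compare the genes with each other, levels were divided by the length of all annotated exons. In the control, Atf2 was highest with 15.6 normalized CPM per kb, followed by Mafg with 12.5, Jdp2 with 11.2 and Creb1 with 6.92. The intervals of Mafg and Jdp2 overlapped. Nfil3 (3.42), Atf1 (2.46), Mafk (2.36) and Crem (2.003) came next on this scale, and the intervals of neighbours among these 4 overlapped. Atf3 (0.303) and Maff (0.252) were lowest, with overlapping intervals. Of these 10 genes, the untreated hippocampus thus held mainly transcripts of Atf2, Mafg, Jdp2 and Creb1, and very little of Atf3 and Maff.

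The order was different after seizures. At 1 h Atf3 came first with 51.2 normalized CPM per kb, before Nfil3 with 27.5 and Jdp2 with 24.5, the intervals of Nfil3 and Jdp2 overlapping. At 4 h Atf3 again came first, with 66.1 in library 1 and 25.2 in library 2. Nfil3 was next in library 1 with 50.0 but only the fifth in library 2 with 11.5, where its interval overlapped that of Mafg. At 8 h the first 5 places were those of the control, with Atf2 at 14.9, Mafg at 11.1, Jdp2 at 9.53, Creb1 at 8.27 and Nfil3 at 5.32, the intervals of Mafg and Jdp2 and those of Jdp2 and Creb1 overlapping. Atf3 (2.07) and Maff (0.880) were the last of the 10.

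**Figure D1:**
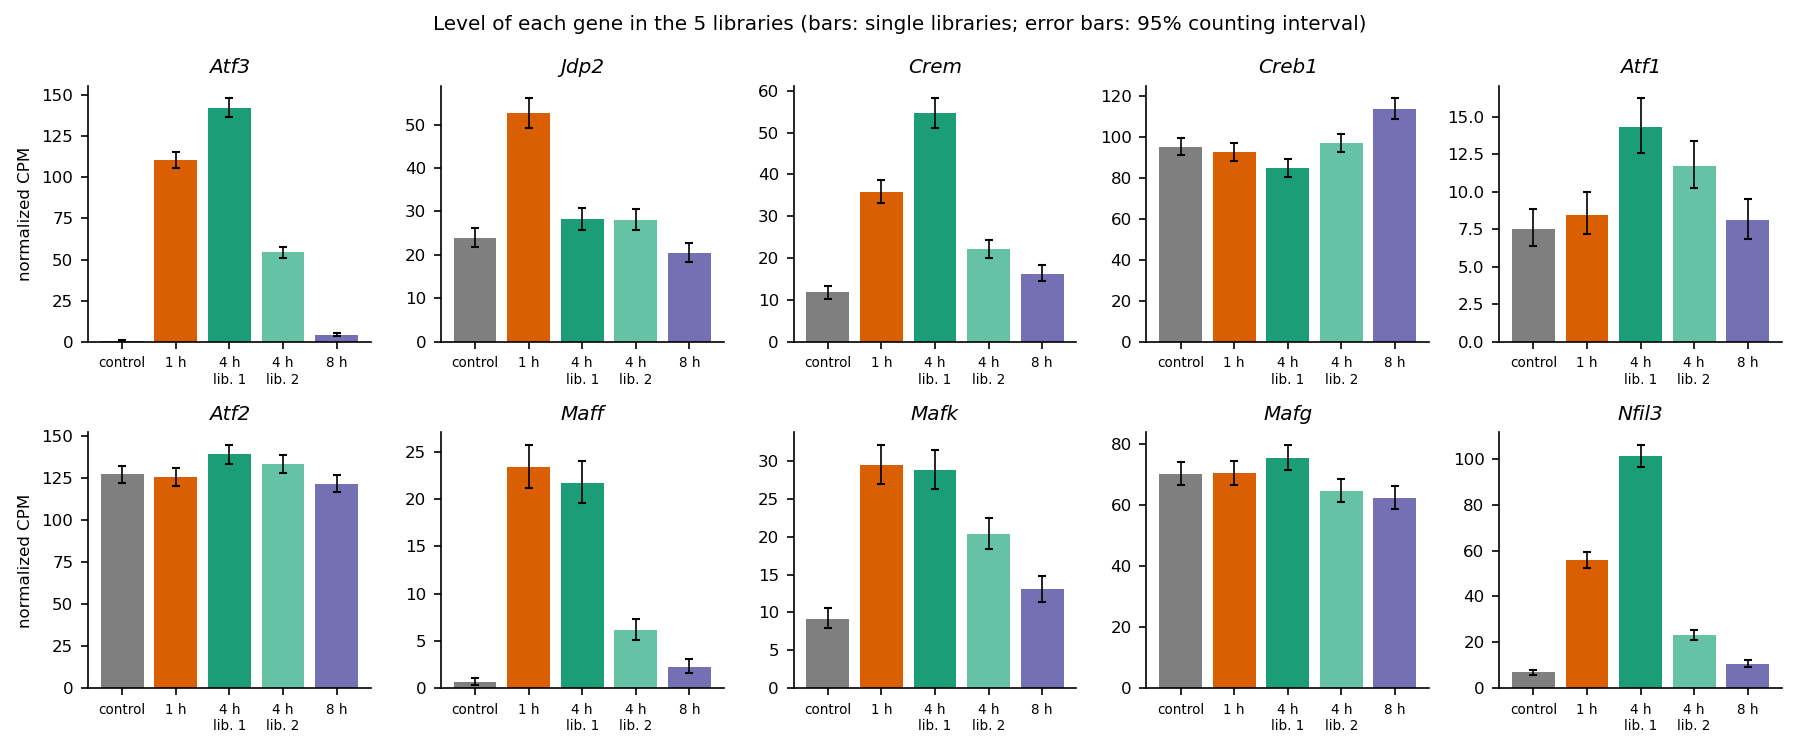
Normalized CPM of each of the 10 genes (vertical axis, starting at 0, a scale per panel) in the 5 libraries, where a bar is a single library and the error bar its exact Poisson 95% interval. Atf3, Maff, Nfil3, Crem and Mafk were higher in the libraries of 1 h and 4 h than in the control, Jdp2 was highest at 1 h with 52.6 normalized CPM, and Atf2 stayed between 121.8 and 139.3.

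Atf3 (ENSMUSG00000026628.13), a factor that many kinds of stress induce, lies on the minus strand of GRCm38 at chr1:191170296-191218039. RefSeq places a start site inside this span, and the 250 bases before it are shown because Atf3 had the largest ratios of the 10 genes. They are given on the minus strand of GRCm38.p6 at chr1:191183334-191183583, of which 7 bases are annotated as exon in GENCODE, with a variant of the CRE, TTACGTCA, in capitals.
Atf3: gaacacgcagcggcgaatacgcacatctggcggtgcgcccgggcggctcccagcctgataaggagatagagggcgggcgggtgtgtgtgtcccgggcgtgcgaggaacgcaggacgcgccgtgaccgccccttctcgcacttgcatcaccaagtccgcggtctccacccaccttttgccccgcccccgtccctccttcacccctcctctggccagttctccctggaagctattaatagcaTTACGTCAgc
The variant begins 10 bases before the start site and contains the CRE half-site TGACG, read on the other strand.

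Atf3 had 13 counts in the control and 1939 at 1 h, then 2397 and 1028 in the pair at 4 h and 78 at 8 h. Scaled to normalized CPM, the values were 0.653 (0.348 to 1.12), 110.3 (105.5 to 115.3), 142.4 (136.7 to 148.2), 54.4 (51.1 to 57.8) and 4.45 (3.52 to 5.55). The transcript was thus nearly absent from the control, abundant at 1 h and 4 h, and still above the control at 8 h, with no overlap between the interval of the control and that of any kainic acid library. The ratio to the control was 168.9 (98.5 to 317.8) for the library of 1 h, 218.0 (127.2 to 409.9) and 83.2 (48.5 to 156.9) for the pair of 4 h and 6.81 (3.76 to 13.4) for that of 8 h. The 13 counts of the control set the width of these intervals, and the ratio between the libraries at 4 h was known more closely, at 2.62 (2.43 to 2.82).

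Jdp2 (ENSMUSG00000034271.16), a close relative of Atf3 that encodes a repressor of CRE and AP-1 sites, lies on the plus strand at chr12:85599027-85639878. It had 477 counts in the control and 924 at 1 h, then 475 and 531 in the pair at 4 h and 359 at 8 h, which made 24.0, 52.6, 28.2, 28.1 and 20.5 normalized CPM. The high value was limited to the library of 1 h. The ratio to the control was 2.19 (1.96 to 2.45) for the library of 1 h, 1.18 (1.03 to 1.34) and 1.17 (1.03 to 1.33) for the pair of 4 h and 0.854 (0.743 to 0.982) for that of 8 h. Unlike Atf3, Jdp2 had nearly the same level in both libraries at 4 h, with a ratio of 1.00 (0.886 to 1.14) between them. Exons of Gm47863 on the opposite strand cover 7.68% of the exons of Jdp2, and Gm47863 had between 18 and 33 counts.

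Crem (ENSMUSG00000063889.16) encodes activators and repressors of the CREB subfamily, among them ICER, a short repressor made from an internal promoter. The gene lies on the minus strand of chromosome 18 at chr18:3266048-3337748, with 39 annotated transcripts. The counts join all of them, so that ICER cannot be told apart from the longer activator and repressor forms. Crem had 235 counts in the control and 630 at 1 h, then 919 and 419 in the pair at 4 h and 286 at 8 h, which made 11.8, 35.8, 54.6, 22.2 and 16.3 normalized CPM. Each kainic acid library lay above the control, library 1 at 4 h highest. The ratio to the control was 3.04 (2.61 to 3.54) for the library of 1 h, 4.62 (4.00 to 5.36) and 1.88 (1.60 to 2.21) for the pair of 4 h and 1.38 (1.16 to 1.65) for that of 8 h. Exons of Gm6225 on the opposite strand cover 8.01% of the exons of Crem. Gm6225 had 59 counts in the control and 278 at 1 h, then 140 and 74 at 4 h and 58 at 8 h. The strand setting of the counting is not given in the sources used here, so the share of reads that this overlap could have moved between the 2 genes is not known.

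Creb1 (ENSMUSG00000025958.14), the founding member, lies on the plus strand at chr1:64532645-64604548. Its counts were 1894 in the control and 1623 at 1 h, then 1425 and 1832 in the pair at 4 h and 1992 at 8 h, which made 95.2, 92.3, 84.6, 96.9 and 113.6 normalized CPM. These values stayed close to the control in each library. The ratio to the control was 0.970 (0.908 to 1.04) for the library of 1 h, 0.889 (0.830 to 0.953) and 1.02 (0.954 to 1.09) for the pair of 4 h and 1.19 (1.12 to 1.27) for that of 8 h, so that the libraries at 4 h lay on either side of the control. The interval at 8 h lay above equality for counting error alone, and the spread between animals at 8 h was not measured.

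Atf1 (ENSMUSG00000023027.13), on the plus strand at chr15:100227819-100261244, encodes another CRE-binding activator and had 150 counts in the control and 149 at 1 h, then 241 and 222 in the pair at 4 h and 142 at 8 h. It was thus higher than in the control in both libraries at 4 h, with ratios of 1.90 (1.54 to 2.34) and 1.56 (1.26 to 1.93). At 1 h and 8 h the ratios were 1.12 (0.891 to 1.42) and 1.07 (0.848 to 1.36), with intervals that included equality. Both of these intervals overlapped that of library 2 at 4 h. Atf2 (ENSMUSG00000027104.18), which encodes a partner of JUN that stress kinases activate, lies on the minus strand at chr2:73816509-73892639. It had between 2136 counts at 8 h and 2536 in the control, and its ratios to the control lay between 0.956 at 8 h and 1.09 in library 1 at 4 h. A misc_RNA gene, Gm27421, shares 2.04% of the exons of Atf2 and had 0 counts in each library.

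Among the small MAFs, Maff and Mafk were higher than in the control in each kainic acid library, whereas Mafg lay on either side of it. Maff (ENSMUSG00000042622.14) lies on the plus strand at chr15:79346621-79359076 and has 3 RefSeq start sites. The 250 bases before the middle one, on the plus strand of GRCm38.p6 at chr15:79347270-79347519, are shown because they hold the only full CRE, TGACGTCA, in the upstream windows of these genes. It spans the bases 29 to 22 before the start site and is given in capitals.
Maff: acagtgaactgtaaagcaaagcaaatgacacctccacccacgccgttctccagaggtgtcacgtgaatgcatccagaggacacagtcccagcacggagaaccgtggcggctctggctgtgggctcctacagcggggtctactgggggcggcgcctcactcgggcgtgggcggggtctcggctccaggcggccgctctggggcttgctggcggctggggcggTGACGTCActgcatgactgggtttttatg
The window does not overlap an annotated exon. Mafk (ENSMUSG00000018143.10) lies on the plus strand at chr5:139791513-139802653, and the bases before its start site, at chr5:139791286-139791535 on the plus strand, hold a CRE half-site in capitals, 41 to 37 bases before the start. Of these, 23 bases are annotated as exon in GENCODE.
Mafk: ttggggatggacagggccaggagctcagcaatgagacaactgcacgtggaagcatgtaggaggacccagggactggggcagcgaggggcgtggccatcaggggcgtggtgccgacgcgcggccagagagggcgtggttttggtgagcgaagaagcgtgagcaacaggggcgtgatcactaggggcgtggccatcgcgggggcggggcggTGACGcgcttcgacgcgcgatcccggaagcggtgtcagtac
The window of Mafk also holds a CNC-MAF core, TGACNNNGC, read on the opposite strand 13 to 5 bases before the start site.

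Maff had 13 counts in the control and 411 at 1 h, then 366 and 116 in the pair at 4 h and 40 at 8 h. Scaled to normalized CPM, the values were 0.653 (0.348 to 1.12), 23.4 (21.2 to 25.8), 21.7 (19.6 to 24.1), 6.13 (5.07 to 7.36) and 2.28 (1.63 to 3.11). As for Atf3, the interval of the control was below that of every kainic acid library. The ratio to the control was 35.8 (20.7 to 67.8) for the library of 1 h, 33.3 (19.2 to 63.1) and 9.39 (5.28 to 18.2) for the pair of 4 h and 3.49 (1.83 to 7.12) for that of 8 h. Library 1 at 4 h held 3.54 times as much as library 2 (2.87 to 4.40) and was close to the library of 1 h.

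Mafk had 183 counts in the control and 518 at 1 h, then 484 and 384 in the pair at 4 h and 229 at 8 h, which made 9.19, 29.5, 28.7, 20.3 and 13.1 normalized CPM. Its ratio to the control was 3.21 (2.70 to 3.81) for the library of 1 h, 3.13 (2.63 to 3.73) and 2.21 (1.85 to 2.65) for the pair of 4 h and 1.42 (1.16 to 1.74) for that of 8 h. Mafk thus started from a level that was well measured in the control and was higher in each kainic acid library. Exons of Tmem184a on the opposite strand cover 4.33% of the exons of Mafk, and Tmem184a had between 6 and 27 counts. Mafg (ENSMUSG00000051510.13), on the minus strand at chr11:120625117-120633600, was the most abundant small MAF in the control, with 1397 counts. The 1 h library held 1236 counts, the pair of 4 h 1271 and 1223, and the 8 h library 1092. Its ratios to the control lay between 0.887 (0.819 to 0.961) at 8 h and 1.08 (0.996 to 1.16) in library 1 at 4 h. Sirt7, on the same strand, shares 2.21% of the exons of Mafg and had between 359 and 568 counts.

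Per length, Mafg exceeded Mafk and Maff in each of the 5 libraries. In the control Mafg had 12.5 normalized CPM per kb, against 2.36 for Mafk and 0.252 for Maff, whereas at 1 h it had 12.5 against 7.55 and 9.01. Maff was thus above Mafk at 1 h and in library 1 at 4 h (8.38 against 7.37), with overlapping intervals, and below it in the other libraries.

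Nfil3 (ENSMUSG00000056749.7), the repressor of D-box genes, lies on the minus strand at chr13:52967209-52981073. The bases upstream of its annotated exon, 216 in number, on the minus strand of GRCm38.p6 at chr13:52981074-52981289, are shown because Nfil3 had the largest difference between the libraries at 4 h. They hold a CRE half-site, read on the other strand, in capitals.
Nfil3: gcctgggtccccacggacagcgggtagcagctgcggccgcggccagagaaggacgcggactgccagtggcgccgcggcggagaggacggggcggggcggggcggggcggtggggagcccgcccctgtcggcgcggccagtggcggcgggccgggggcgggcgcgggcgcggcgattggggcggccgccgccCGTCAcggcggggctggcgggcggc
Nfil3 had 138 counts in the control and 981 at 1 h, then 1704 and 440 in the pair at 4 h and 189 at 8 h, which made 6.93, 55.8, 101.2, 23.3 and 10.8 normalized CPM. The level was higher than in the control in each kainic acid library, and library 1 at 4 h was the highest of all. The ratio to the control was 8.05 (6.73 to 9.69) for the library of 1 h, 14.6 (12.3 to 17.5) and 3.36 (2.77 to 4.09) for the pair of 4 h and 1.55 (1.24 to 1.95) for that of 8 h. Library 1 held 4.35 times as much as library 2 (3.91 to 4.84).

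**Figure D2:**
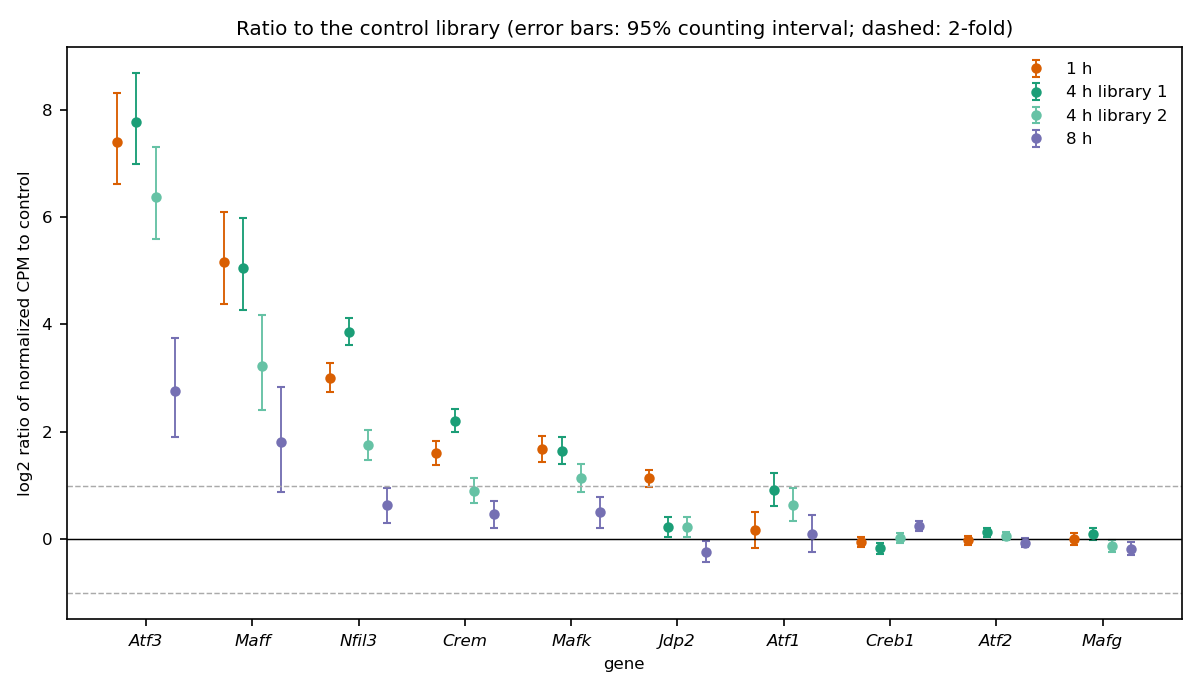
Log2 ratio of normalized CPM to the control library (vertical axis) for each gene (horizontal axis), where a point is a kainic acid library, the error bars are exact binomial 95% intervals and the dashed lines mark 2-fold. Atf3 reached 7.77 in library 1 at 4 h, the libraries at 4 h were apart for Atf3, Maff, Nfil3 and Crem, and Creb1, Atf2 and Mafg lay near 0.

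RefSeq gave upstream windows for 9 of the 10 genes, all but Crem, in 13 windows. In all 32851 windows of the table, 7 motifs were searched in the 250 bases before the start site, on both strands except for the TATA box, which was read on the strand of the gene. The CRE, TGACGTCA, was found in 1 of the 13 windows, that of Maff, and in 1.55% of all windows. Its half-site, TGACG, which the full CRE contains, was found in 8 of the 13 windows, of 7 genes, and in 17.8% of all windows. These genes were Atf3, Jdp2, Atf1, Maff, Mafk, Mafg and Nfil3, among which Mafg and Atf1 had ratios to the control of 1.00 and 1.12 at 1 h. The variant TTACGTCA, spelled out after the window of Atf3 had been read, was in 1 of the 13 windows and in 0.447% of all windows.

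The AP-1 site TGANTCA was in 0 of the 13 windows and in 6.75% of all windows. The D-box TTANGTAA was found in 1 window, of Jdp2, and in 2.06% of all windows. The CNC-MAF core TGACNNNGC, which can overlap the half-site, was in 4 of the 13 windows, of Atf1, Maff, Mafk and Mafg, and in 10.2% of all windows. The TATA box, TATAAA, was in 0 of the 13 windows and in 7.59% of all windows. A match says that these letters are in the window, and its use as a binding site was not tested.

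The genes were then compared with the control at each time point, to describe the response over time. Log2 fold changes carry a prior count of 2, which makes those of genes with low counts in the control smaller than the ratios above. The test was edgeR's quasi-likelihood test, with p-values adjusted after Benjamini-Hochberg over all 19768 genes that passed the filter, and all 10 genes passed it. Each SE was worked back from the F statistic of this test and the log2 fold change without the prior count, not the one printed. Only the pair at 4 h was replicated, so the lone library of each other condition was taken to vary as much as the pair does, with 1 residual degree of freedom. Because the labels do not say that the pair came from separate animals, the p-values measure only the spread between these samples. The 3 comparisons with the control share the control library.

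At 1 h, 6 of the 10 genes were at least 2-fold higher than in the control, namely Atf3, Maff, Nfil3, Mafk, Crem and Jdp2, against 4.14% of all genes tested. The log2 fold change was 7.18 (SE 0.90) for Atf3, which had rank 2 of 19768 by log2 fold change, 4.94 (SE 1.05) for Maff, with rank 13, and 2.99 (SE 0.99) for Nfil3, with rank 66. It was 1.67 (SE 0.35) for Mafk, 1.59 (SE 0.62) for Crem and 1.13 (SE 0.24) for Jdp2. The genes with the largest differences were thus the stress-responsive Atf3, the small MAF Maff and the repressor Nfil3. The remaining 4 genes lay between -0.04 for Creb1 and 0.17 for Atf1, and the sign for Mafg (0.0026, SE 0.22) was not the same under each scaling. The median of the 10 genes was 1.36, beside -0.0050 over all genes tested.

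None of these differences passed the adjusted threshold. After Benjamini-Hochberg adjustment, 0 of the 10 genes and 0 genes in all (0.0%) had an adjusted p under 0.05 in edgeR's quasi-likelihood test at 1 h. Before adjustment, a p under 0.05 was found for 478 genes (2.42%), among them the 6 genes named. This was fewer than the 988 genes expected at that threshold if none of the 19768 differed. The adjusted p of edgeR's quasi-likelihood test was 0.685 for Atf3 and 1.00 for Maff. Over 7 alternatives, which include DESeq2 and limma-voom, it ranged from 1.34e-82 to 1.00 for Atf3 and 1.94e-21 to 1.00 for Maff. The lower ends came from edgeR's quasi-likelihood test without the filter, and the upper end for Atf3 from limma-voom. DESeq2 called 56 of the 12486 genes to which it gave an adjusted p (0.449%), among them Atf3 and Maff with DESeq2 adjusted p values of 4.98e-06 and 5.98e-06, whereas limma-voom called 0. Without the filter on low counts edgeR called 285 of 32732 genes (0.871%), including all 6. With library size alone in place of TMM edgeR called 57 of 19768 genes, among them Atf3 and Maff. The calls therefore depended on the tool, the filter and the scaling, whereas the number of the 10 genes at least 2-fold higher at 1 h was 6 under each of the 7 alternatives.

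At 4 h, 5 of the 10 genes, Atf3, Maff, Nfil3, Crem and Mafk, were at least 2-fold higher than in the control, against 7.81% of all genes tested. The log2 fold change was 7.01 (SE 0.88) for Atf3, 4.20 (SE 0.98) for Maff, 3.14 (SE 0.94) for Nfil3, 1.69 (SE 0.57) for Crem and 1.40 (SE 0.32) for Mafk. In both libraries taken singly, 4 genes were at least 2-fold higher, against 3.91% of all genes, and Crem was not among them, since it had a ratio of 1.88 in library 2. The 4 genes were Atf3, Maff, Nfil3 and Mafk. Jdp2, which was 2-fold higher at 1 h, stood at 0.23 (SE 0.21) in log2 at 4 h, and Atf1 had 0.78 (SE 0.30). Creb1 (-0.07), Mafg (-0.0024) and Atf2 (0.10) lay near 0, with signs that were not the same under each alternative. The median of the 10 genes was 1.09, beside 0.0098 over all genes tested, and it was 1.27 with library 1 alone and 0.77 with library 2 alone, beside -0.0072 and 0.0032 over all genes.

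After Benjamini-Hochberg adjustment, 0 of the 10 genes and 1 gene in all (0.00506%) had an adjusted p under 0.05 in edgeR's quasi-likelihood test at 4 h. This gene, ETV3L, is named after its values were seen, and it had 1 count in the control and 2 at 1 h, then 963 and 982 in the pair at 4 h and 365 at 8 h, nearly equal in the pair. Before adjustment, a p under 0.05 was found for 2291 genes (11.6%) and for 6 of the 10 genes, namely the 5 above and Atf1. The adjusted p of edgeR's quasi-likelihood test was 0.242 for Atf3 and 0.288 for Maff. Over 7 alternatives it ranged from 1.63e-83 to 0.355 for Atf3 and from 1.22e-17 to 0.441 for Maff. The lower ends came from edgeR's quasi-likelihood test without the filter and the upper ends from limma-voom. DESeq2 called 238 of 14019 genes (1.7%), among them Atf3 and Maff with DESeq2 adjusted p values of 5.80e-08 and 8.37e-06, and limma-voom called 0. Without the filter edgeR called 1300 genes (3.97%), including the 5 genes that were at least 2-fold higher.

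At 8 h, 2 of the 10 genes, Atf3 and Maff, were at least 2-fold higher than in the control, against 5.24% of all genes tested. Their log2 fold changes were 2.58 (SE 0.91) and 1.65 (SE 1.07). Those of Nfil3 (0.63), Mafk (0.50) and Crem (0.46) were positive and under 2-fold, and the other 5 genes lay between -0.23 for Jdp2 and 0.26 for Creb1. The median of the 10 genes was 0.36, beside 0.0091 over all genes tested. Most of the distance from the control seen at 1 h and 4 h was thus not seen in the library of 8 h. After Benjamini-Hochberg adjustment, 0 of the 10 genes and 0 genes in all (0.0%) had an adjusted p under 0.05 in edgeR's quasi-likelihood test. Before adjustment, a p under 0.05 was found for 892 genes (4.51%), among them Atf3, and this number too was below the 988 expected if no gene differed. DESeq2 called 33 of 14019 genes (0.235%), none of the 10 genes among them, limma-voom called 0, and edgeR without the filter called 279 genes (0.852%) with Atf3 among them.

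**Figure D3:**
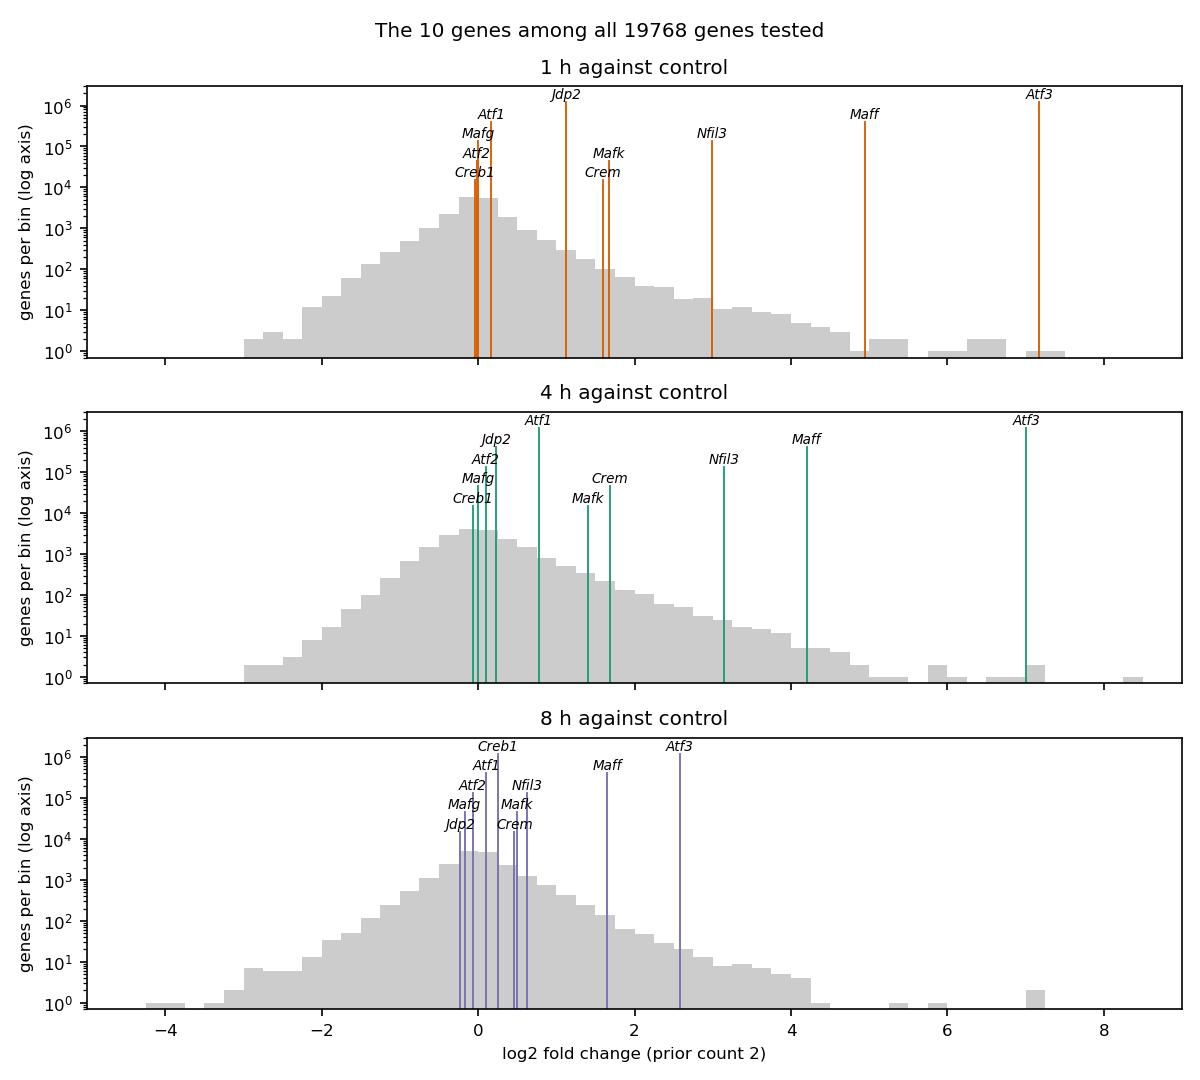
Number of genes per bin of 0.25 in log2 fold change against the control (grey bars, log axis) over all 19768 genes tested, at 1 h, 4 h and 8 h, with the 10 genes as labelled lines. Atf3 lay at 7.18, 7.01 and 2.58 and Maff at 4.94, 4.20 and 1.65, far to the right of most genes, whereas Creb1, Atf2 and Mafg lay within 0.26 of 0 at each time point.

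Between 1 h and 4 h, 0 of the 10 genes were 2-fold apart in either direction, against 7.95% of all genes tested. The log2 fold change of 4 h against 1 h was -0.17 (SE 0.53) for Atf3, 0.10 (SE 0.52) for Crem and 0.16 (SE 0.78) for Nfil3. The mean of 4 h hid opposite values for these 3 genes, for library 1 was above and library 2 below the library of 1 h. Nfil3 had 0.86 in library 1 and -1.26 in library 2, Crem had 0.61 and -0.69, and Atf3 had 0.37 and -1.02. Jdp2 was lower at 4 h by both libraries, with a log2 fold change of -0.90 (SE 0.20), and Maff had -0.75 (SE 0.69). With library 2 alone, 3 genes were at least 2-fold lower at 4 h, namely Maff (-1.91), Nfil3 and Atf3, against 3.97% of all genes, and with library 1 alone there were 0, against 4.31%. After Benjamini-Hochberg adjustment, 0 of the 10 genes and 1 gene in all (0.00506%) had an adjusted p under 0.05 in edgeR's quasi-likelihood test, again ETV3L. Before adjustment, a p under 0.05 was found for 1569 genes (7.94%), among them Jdp2. DESeq2 called 109 of 13252 genes (0.823%), none of the 10 genes among them, and limma-voom called 0. Without the filter edgeR called 725 genes (2.21%), among them Jdp2. For Jdp2 the adjusted p of edgeR's quasi-likelihood test was 0.475 with the filter. Over 7 alternatives it ranged from 0.0198 (edgeR's quasi-likelihood test without the filter) to 0.625 (DESeq2).

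Between 4 h and 8 h, 4 of the 10 genes, Atf3, Maff, Nfil3 and Crem, were at least 2-fold lower at 8 h, against 5.19% of all genes tested. The log2 fold change was -4.43 (SE 0.71) for Atf3, -2.55 (SE 0.85) for Maff, -2.52 (SE 0.90) for Nfil3 and -1.23 (SE 0.56) for Crem. Mafk, with -0.90 (SE 0.31), was just under 2-fold, and Creb1 had 0.32 (SE 0.18). With library 2 alone as the 4 h condition, 3 genes were at least 2-fold lower, namely Atf3 (-3.58), Maff (-1.39) and Nfil3 (-1.10), against 3.8% of all genes. With library 1 alone there were 5, Mafk (-1.13) being the additional gene, against 7.75%. After Benjamini-Hochberg adjustment, 0 of the 10 genes and 0 genes in all (0.0%) had an adjusted p under 0.05 in edgeR's quasi-likelihood test. Before adjustment, a p under 0.05 was found for 1726 genes (8.73%), among them Atf3, Maff, Nfil3 and Mafk. DESeq2 called 129 of 14019 genes (0.92%), among them Atf3 and Maff with DESeq2 adjusted p values of 0.00529 and 0.0391, and limma-voom called 0. Without the filter edgeR called 957 genes (2.92%), among them Atf3, Crem, Maff and Nfil3. In edgeR's quasi-likelihood test the adjusted p was 0.463 for Atf3 and 0.532 for Maff. Over 7 alternatives it ranged from 7.62e-48 to 0.542 for Atf3 and from 4.21e-08 to 0.657 for Maff. The lower ends came from edgeR's quasi-likelihood test without the filter and the upper ends from limma-voom.

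Within the pair at 4 h, 4 of the 10 genes, Nfil3, Maff, Atf3 and Crem, were at least 2-fold higher in library 1 than in library 2, against 6.06% of all genes tested. The ratio was 1.42 (1.24 to 1.62) for Mafk, 1.22 (1.01 to 1.47) for Atf1 and 1.17 (1.08 to 1.26) for Mafg. It was 1.04 (0.987 to 1.11) for Atf2, 1.00 for Jdp2 and 0.874 (0.815 to 0.937) for Creb1. This spread enters the error of every comparison, and library 1 was also the library with few choroid plexus transcripts, with 33.1% of reads on no gene against 25.3% in library 2.

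For each of the 6 genes with a kainic acid library at least 2 times the control, the 3 genes with the most similar profile were sought among the 14298 genes that reached 50 normalized counts in any library. The measure was the root mean square difference in log2 ratio to the control over the 4 kainic acid libraries. Atf3 was closest to Fosb (1.43), Fos (2.24) and Nptx2 (2.28), against a median distance of 6.21. Maff was closest to Ptgs2 (0.421), which encodes the prostaglandin synthase COX-2, 1700016P03Rik (0.585) and Gadd45b (0.615), with a median distance of 3.89. Nfil3 was closest to Ifrd1 (0.354), Kdm6b (0.387) and Gm48958 (0.424), with a median distance of 2.63.

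Mafk was closest to Mcl1 (0.123), an anti-apoptotic relative of BCL2, Gm10997 (0.166) and Lonrf3 (0.171), with a median distance of 1.36. Crem was closest to Gm48127 (0.183), Gm10997 (0.187) and Gm37115 (0.192), and the median distance was 1.49. Jdp2 was closest to Atoh8 (0.112), Rbks (0.122) and Rasl11b (0.130), with a median of 0.686. Of the genes named as similar, Atoh8, Rbks, Gm48127, Gm10997 and Gm48958 had few counts, between 28 and 69 for Atoh8, between 14 and 49 for Gm10997 and, for Gm48958, 9 in the control and 17 at 8 h. The similarity is over 4 libraries and describes the profiles alone.

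Other bZIP genes of the ATF, CREB and BATF families were described beside the 10 genes. Of 15 such genes 12 were tested, all but Creb3l4, Batf and Batf2, and 0 were at least 2-fold apart from the control at 1 h, 2 at 4 h (Atf4 higher and Creb3l3 lower) and 2 at 8 h (Batf3 higher and Creb3l3 lower). Over all genes tested, the shares at least 2-fold higher at 1, 4 and 8 h were 4.14%, 7.81% and 5.24% and the shares at least 2-fold lower were 2.53%, 2.21% and 2.47%, beside which the counts of this and the other lists stand. In library 1 at 4 h these shares were 10.6% higher and 5.68% lower, and in library 2 they were 5.33% and 2.69%. Atf4 was at least 2-fold higher in library 1 and not in library 2, Creb3l1 was in library 2 and not in library 1, and no gene of the list was that much higher in both. Creb3l3, lower in both, had under 1 normalized CPM in each library. Creb3l1 also had few counts, 15 in the control and 23 and 32 in libraries 1 and 2 at 4 h. The medians were 0.0062, 0.31 and 0.39 at 1, 4 and 8 h, with 0.27 and 0.30 in libraries 1 and 2 at 4 h. Atf4, the central factor of the integrated stress response, had 91.3 normalized CPM in the control and 160.5 at 1 h, then 209.3 and 164.5 in the pair at 4 h and 127.3 at 8 h. Batf3 had between 0.455 and 1.19 normalized CPM up to 4 h and 4.39 at 8 h, with the highest value at 8 h. Atf6, a sensor of stress in the endoplasmic reticulum, had 110.3 in the control and 125.2 at 1 h, then 174.6 and 176.7 in the pair at 4 h and 181.3 at 8 h.

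Among 10 CNC and large MAF genes, of which all but Nfe2 were tested, Bach1 alone was at least 2-fold apart from the control, at 4 h. In library 1 on its own Bach2 was also higher and Mafa lower. Bach1, a repressor that pairs with small MAFs, had 19.8 normalized CPM in the control and 27.5 at 1 h, then 72.0 and 49.6 in the pair at 4 h and 26.9 at 8 h. The log2 fold change was 1.61 (SE 0.30) at 4 h. The medians of the list were -0.05, -0.08 and -0.24 at the 3 time points, with -0.25 and -0.09 in libraries 1 and 2 at 4 h. Bach1 was thus highest at 4 h, in both libraries, whereas Maff and Mafk had overlapping intervals at 1 h and in library 1 at 4 h and were lower in library 2.

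Among 12 antioxidant genes known as targets of CNC-MAF dimers, 0 were 2-fold higher at 1 h and 2 were at 4 h and at 8 h, in each case Srxn1 and Hmox1. Srxn1, which encodes sulfiredoxin, had 67.2 normalized CPM in the control and 91.8 at 1 h, then 720.5 and 418.9 in the pair at 4 h and 154.6 at 8 h. Hmox1, which encodes heme oxygenase, had 3.77, 3.87, 19.6, 13.9 and 11.9 in the same order. The median of the list was 0.08, 0.21 and -0.00018 at the 3 time points, with 0.15 and 0.19 in libraries 1 and 2 at 4 h. The other 10 antioxidant genes were within 2-fold of the control at each time point.

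Of 20 genes known to contain CREs, 14 were at least 2-fold higher at 1 h (against 4.14% of all genes tested), 17 at 4 h (7.81%) and 6 at 8 h (5.24%), where Nr4a2 was at least 2-fold lower. The count at 4 h depended on the library, with 18 in library 1 (against 10.6% of all genes) and 11 in library 2 (5.33%), and the same 11 genes were at least 2-fold higher in both (3.91% of all genes). The medians were 2.77, 1.79 and -0.02, and at 4 h library 1 had 2.46 and library 2 had 1.23. This list holds immediate early genes that are also known to be under other factors, and its largest log2 fold changes at 1 h were those of Fosb (6.68, SE 1.11), Fos (6.52, SE 1.50) and Junb (4.40, SE 1.01). For the mean of the pair at 4 h they were those of Fosb (5.36), Fos (4.76) and Ptgs2 (4.30). In library 1 these genes had 6.04, 5.57 and 4.85, and in library 2 they had 4.06, 2.69 and 3.39, so that Ptgs2 was above Fos there.

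Of 17 coactivators of CREB and kinases that act on it or on its coactivators, Sik1 alone was at least 2-fold higher at 1 h, and Sik1, Sik2 and Rps6ka3 were in the mean of 4 h. In library 2 at 4 h Sik1 alone was. Sik1, a kinase that keeps the CREB coactivators out of the nucleus, had 13.8 normalized CPM in the control and 110.0 at 1 h, then 110.5 and 48.9 in the pair at 4 h and 14.7 at 8 h. Sik2 had 33.9 in the control against 160.2 and 55.7 in libraries 1 and 2 at 4 h, and Rps6ka3 had 30.8 against 107.4 and 55.6. The medians of this list were 0.0038, -0.02 and -0.02, with 0.07 in library 1 and -0.10 in library 2 at 4 h. By the mean of 4 h, the other 14 genes were within 2-fold of the control at each time point.

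The 3 PAR bZIP genes, which bind the same D-box as NFIL3 and activate through it, were lower at the later time points. Dbp had 38.3 normalized CPM in the control and 37.5 at 1 h, then 14.5 and 20.3 in the pair at 4 h and 8.04 at 8 h. Tef had 403.1, 337.4, 221.0, 231.6 and 215.1, and Hlf had 71.4, 65.8, 60.5, 40.6 and 34.4 in the same order. At 1 h, when Nfil3 had a ratio of 8.05, the median log2 fold change of the PAR bZIP genes was -0.12, and it was -0.83 at 4 h (-0.87 in library 1 and -0.81 in library 2) and -1.05 at 8 h. Dbp was at least 2-fold lower in the mean of 4 h and in library 1 but not in library 2, and Dbp and Hlf were at 8 h. The only control library was not matched to each time point, and the part of the time of day in these differences was not tested.

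Of 12 genes of the integrated stress response, 3 were at least 2-fold higher at 1 h (Ppp1r15a, Trib3 and Cebpb), 3 at 4 h (Chac1, Ppp1r15a and Trib3) and Trib3 alone at 8 h. In library 1 at 4 h the same 3 genes and Gadd45a were, in library 2 Chac1 alone was, and Trib3 had under 1 normalized CPM in each library. Ppp1r15a, which encodes GADD34, had 9.90 normalized CPM in the control and 73.7 at 1 h, then 29.8 and 13.7 in the pair at 4 h and 11.0 at 8 h. The medians were 0.28, 0.67 and 0.11, and at 4 h library 1 had 0.73 and library 2 had 0.51. In none of the 7 related lists did any gene have an adjusted p under 0.05 in edgeR's quasi-likelihood test (after Benjamini-Hochberg) in these comparisons. 

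Before adjustment, a p under 0.05 at 1, 4 and 8 h was found for 2.42%, 11.6% and 4.51% of all genes tested. Of the 20 CRE genes it was found for 15, 11 and 1 (Vgf at 8 h), and of the 17 coactivators and kinases for 1 (Sik1), 8 and 2 (Rps6ka2 and Rps6ka5). The PAR bZIP genes had 0, then 2 (Tef and Dbp) and 3 of 3, all of them lower. The other ATF and CREB bZIP genes had 1 (Atf4), 4 (Atf4, Atf6, Atf6b and Creb3l3) and 3 (Batf3, Atf6 and Creb3l2). The CNC and large MAF genes had Bach1 at 4 h, and the antioxidant genes had Srxn1 and Hmox1 at 4 h and 8 h. The stress response genes had 2 (Ppp1r15a and Cebpb), 4 (Slc3a2, Vldlr, Chac1 and Sesn2) and 1 (Phgdh).

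**Figure D4:**
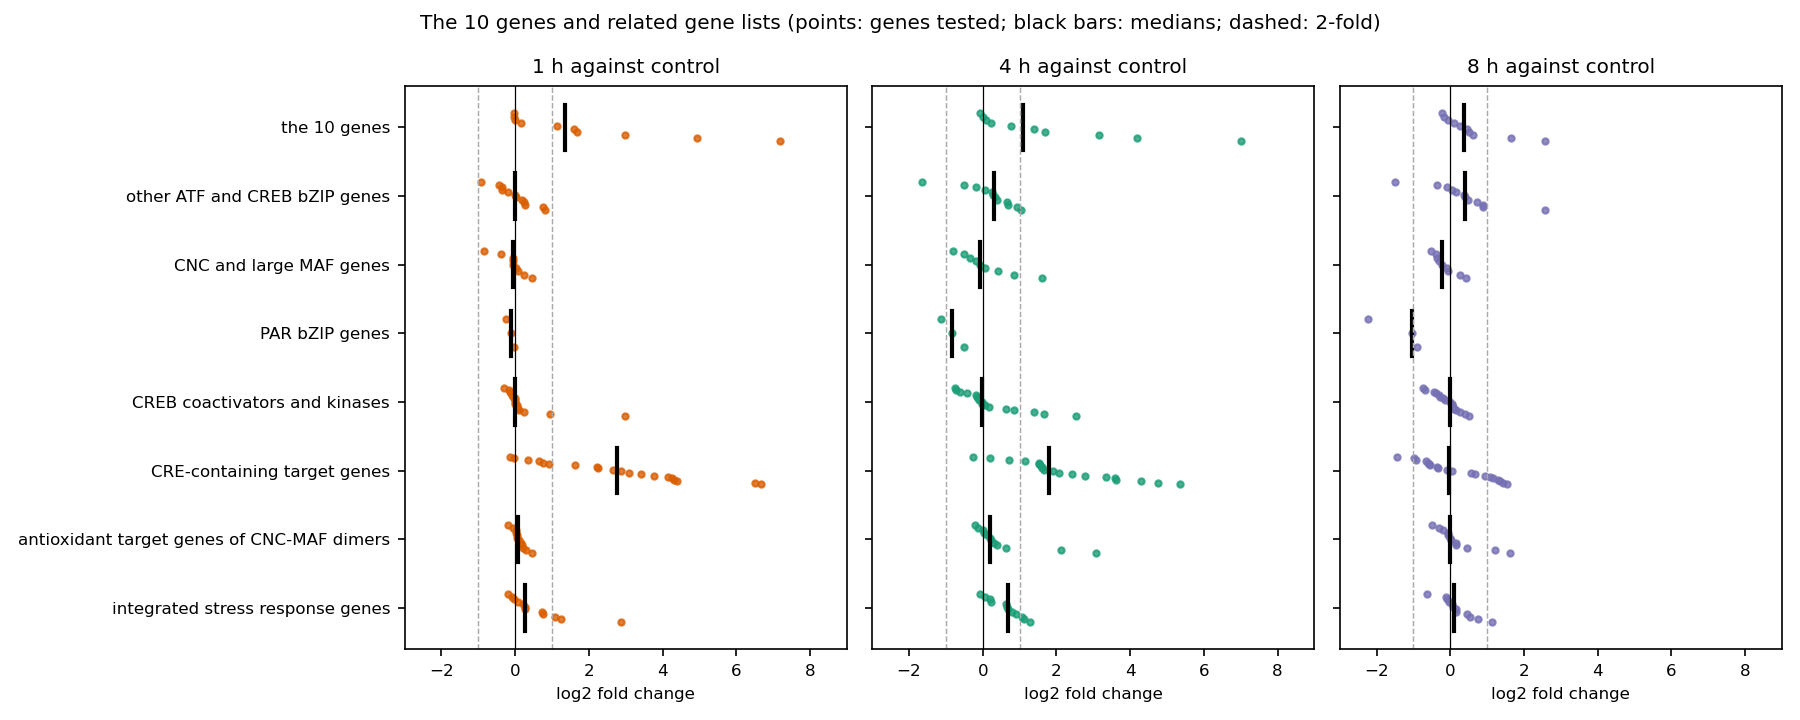
Log2 fold change against the control (horizontal axis) of the 10 genes and of 7 related lists at 1 h, 4 h and 8 h, where a point is a gene tested, a black bar the median of its list and the dashed lines 2-fold. The CRE genes had a median of 2.77 at 1 h and the 10 genes one of 1.36, whereas the other ATF and CREB bZIP genes had one of 0.0062.

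The makeup of the tissue was read from markers of 9 cell types. In whole hippocampus, fewer cells of a type and less RNA per cell cannot be told apart. The 5 markers of excitatory neurons summed to 2326 normalized CPM in the control and 2298 at 1 h, then 2022 and 2204 in the pair at 4 h and 2180 at 8 h, with Camk2a the most abundant at between 1218 and 1436. Their median log2 fold change was -0.24 in the mean of 4 h, with -0.34 in library 1 and -0.09 in library 2. Unlike this median, Prox1 was at least 2-fold higher in the mean of 4 h, with 171.6 in library 1 and 119.7 in library 2 against 60.0 in the control. The 3 markers of GABAergic neurons summed to 390.6, 448.2, 693.9, 574.2 and 410.6, led by Gad1, which was at least 2-fold higher in library 1 at 4 h and not in library 2. Markers of both neuron classes were present in each library, and those of GABAergic neurons were highest at 4 h.

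The 5 markers of astrocytes summed to 992.8 normalized CPM in the control and 1084 at 1 h, then 1603 and 1438 in the pair at 4 h and 1432 at 8 h, with Slc1a3 the most abundant, and Gfap was at least 2-fold higher at 4 h and 8 h. The 5 microglial markers, led by Csf1r, summed to between 135.6 and 170.5, and P2ry12 was at least 2-fold lower in the mean of 4 h, with 13.9 and 17.8 against 31.9 in the control. The 4 oligodendrocyte markers, led by Mbp, summed to between 2978 in the control and 4529 in library 2 at 4 h. Endothelial markers, 4 with Flt1 the most abundant, summed to between 93.6 and 118.9. Their median log2 fold change was 0.09 in the mean of 4 h, with 0.38 in library 1 and -0.28 in library 2. Slco1a4 was at least 2-fold lower in the mean of 4 h, with 12.0 in library 1 against 48.6 in the control, and was under 2-fold lower in library 2. Flt1 had 40.1 in the control, 70.2 in library 1 and 38.5 in library 2 at 4 h. The 5 blood markers, led by Hbb-bs, summed to between 113.1 at 1 h and 237.0 in library 1 at 4 h, where Alas2 and Hbb-bt were at least 2-fold higher. Markers of infiltrating leukocytes, 5 with Ptprc the most abundant, summed to 5.12 in the control and 8.50 at 8 h, and Ccr2, with under 1 normalized CPM in each library, was at least 2-fold higher at 8 h and at least 2-fold lower in library 2 at 4 h. Of these 5, Ly6c2 and S100a8 were not tested. None of the markers was at 0 in any library, and the part of cell makeup in the levels of the 10 genes was not tested.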

How the data were processed

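Stranded libraries were made from hippocampal total RNA, and the counts per gene and library were deposited by the authors without normalization. The submitters' processing notes name STAR 2.5.1b, HTSeq and the build GRCm38.p4. They give no HTSeq version, strand setting or annotation release. Reads on no gene made up 24.7% of the reads in the control and 29.0% at 1 h, then 33.1% and 25.3% in libraries 1 and 2 at 4 h and 30.9% at 8 h. Ambiguous reads ranged from 1.26% to 1.52% and reads with more than 1 alignment from 9.67% to 11.6%. These lines stayed out of library sizes and tests.

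The fit used edgeR 4.0.16 in R 4.3.3 (filterByExpr, TMM, quasi-likelihood test with Benjamini-Hochberg adjustment, 4 conditions as groups, common dispersion 0.0565, prior degrees of freedom 4.42). Alternatives were DESeq2 1.42.0, limma 3.58.1 (voom), factors by median of ratios, library size alone, no filter, at least 10 counts in every library, a prior count of 0.125 and leaving out either library at 4 h. The fit was tested on simulated data. Gene positions and exon lengths came from GENCODE release M21 (GRCm38), in which 55144 of the 55385 identifiers were found, and upstream windows from RefSeq (GRCm38.p6). Ddit3 has a second overlapping identifier with no reads, which was left out. The members and gene lists were chosen with earlier results of these data known. All 10 members were described. From each related list, up to 3 genes per comparison with the control were picked as candidates for naming. These had the largest log2 fold change in either direction and at least 50 normalized counts in a library. Not all of the genes picked are named here. Other genes named by a 2-fold difference or by an unadjusted p were chosen after their values were seen, and so were the counts of the lists in each library at 4 h. Python 3.11.15 with pandas 2.3.3, scipy 1.17.1 and matplotlib 3.10.9 made the tables and plots.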

Additional observations from a re-analysis of the deposited data

How the results depend on the processing

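Under 7 alternatives that keep both libraries at 4 h, the number of the 10 genes at least 2-fold from the control stayed 6 at 1 h, 5 at 4 h and 2 at 8 h, and 4 were at least 2-fold lower at 8 h than at 4 h. These 7 alternatives reuse the same libraries, so the counts say nothing on the spread between animals. The shares of all genes at least 2-fold higher under them ranged from 2.63% to 5.41%, 5.57% to 9.07% and 2.98% to 6.82%. For 8 h against 4 h, the share at least 2-fold lower ranged from 3.45% to 6.2%. Leaving out a library at 4 h gave 4 without library 1 (against 5.33% of all genes higher) and 5 without library 2 (10.6%) at 4 h, and 3 (3.8% lower) and 5 (7.75%) at 8 h against 4 h. At 4 h against 1 h the number moved from 0 to 1 with limma-voom (Maff, -1.05; 3.39% of all genes lower) and to 3 without library 1 (Maff, Nfil3 and Atf3; 3.97%), and was 0 without library 2 (4.31%). There the median of the 10 genes lay between -0.61 without library 1 (all genes 0.0013) and 0.12 without library 2 (all genes -0.012).

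The number of genes called depended on the setting, and the cause was not tested. For 1 h, 4 h and 8 h against the control, 4 h against 1 h and 8 h against 4 h, it was 56, 238, 33, 109 and 129 with DESeq2, 57, 237, 22, 67 and 120 with library size alone, and 285, 1300, 279, 725 and 957 without a filter. With at least 10 counts in every library it was 1 at 1 h, 0 at 4 h and 0 for 4 h against 1 h, and it was 0 in the latter comparisons with limma-voom and with factors by median of ratios. Of 50 fold changes of the 10 genes, 6 had an adjusted p under 0.05 with DESeq2, 6 with library size alone and 17 without a filter. Over all genes, between 0.235% and 1.7% per comparison were called with DESeq2 and between 0.852% and 3.97% without a filter. With library size alone, between 22 and 237 of 19768 genes were. Library size alone moved the median of all genes at 4 h from 0.0098 to -0.11 and that of 8 h against 4 h from -0.019 to 0.12.

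Signs turned for values near 0 or where the libraries at 4 h differed, and the cause was not tested. Mafg at 1 h had a log2 fold change of -0.0029 with at least 10 counts, -0.0704 with library size alone and -0.00019 without a filter. Mafg at 4 h had 0.0026 with DESeq2 and with factors by median of ratios, and -0.118 without library 1 and 0.105 without library 2. Atf2 at 4 h had -0.0275 with library size alone. Creb1 at 4 h had 0.0258 without library 1 and -0.169 without library 2. For 4 h against 1 h, Mafg had 0.0022 with DESeq2 and with factors by median of ratios, and Crem had -0.0570 and Nfil3 -0.22 with limma-voom. Without library 1 and without library 2 in turn, that comparison gave 0.0692 and -0.126 for Creb1, -0.69 and 0.605 for Crem, -1.26 and 0.857 for Nfil3, -0.120 and 0.10 for Mafg, and -1.02 and 0.37 for Atf3. With either library at 4 h left out no residual degree of freedom remains, so these are values with no test. No paired analysis was possible because 3 of the 4 conditions have a single library. Low counts limit the ratios of Atf3 and Maff, each with 13 counts in the control.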
